A study of Litchi chinensis with 18 samples.

Results

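The rudimentary carpels of the 2 kinds of functionally male litchi flower were compared by RNA-seq. M flowers carry a pistil so reduced that it is hardly visible, and m flowers carry a visible pistil without style or stigma. The members are, by their labels, the 3 libraries of carpels from M flowers (M-carpel) and the 3 of carpels from m flowers (m-carpel), 6 of the 18 libraries of the series. The other 12 are 3 each of M-stamen, m-stamen, F-carpel and F-stamen, where F stands for functionally female flowers with rudimentary stamens. All organs came from the cultivar 'Feizixiao' at full bloom, were detached from the flowers and were sampled in triplicate. A litchi tree bears both male and female flowers, but whether the flower types were taken from the same trees is not stated. The flower types usually open one after another in the order M, F, m, and the sources used here give neither the day and hour at which each type was collected nor how much tissue of neighbouring organs came off with M-carpel. The annotation models of a locus were added up before any comparison.

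Litchi bears flowers that start with both stamens and a pistil, and sex is set by the arrest of one of them during development. The identity of floral organs is specified by combinations of MADS-box transcription factors. B-class factors (PISTILLATA and APETALA3) are needed for stamens and petals, the C-class factor AGAMOUS for stamens and carpels, the D-class factor SEEDSTICK for ovules, and the E-class SEPALLATA factors act with all of them. These roles were worked out mainly in Arabidopsis.

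The 6 libraries held between 25689398 and 31351088 counts, and within each group the log2 CPM (counts scaled to the size of the library, with TMM factors) of any pair of libraries correlated with a Pearson's r of 0.9735 to 0.9805 across loci. All pairs within a group differed by more than sampling noise, so each library was counted as a sample. The locus Litchi_chinensis_newGene_662 took an uneven share of counts, at 0.169%, 2.14% and 1.39% in M-carpel, against 0.156%, 0.166% and 0.688% in m-carpel, and leaving out loci with 1% or more of a library gave 2455 higher and 1180 lower calls, against 2455 and 1183 with them. A locus was called at a Benjamini-Hochberg adjusted p (FDR) below 0.01 in edgeR's quasi-likelihood test and a fold change of at least 2. Of 24666 loci tested, 3638 (14.7%) were called, 2455 (9.95%) higher and 1183 (4.8%) lower in M-carpel than m-carpel. These 2 shares, in which higher calls outnumber lower ones, are the background for the counts of each gene list. The median log2 fold change over all loci tested was 0.02. The groups did not overlap at 3577 of the 3638. This is no separate support, because the calls were made from the same libraries, and the share over all loci tested is not given. Loci without a call could separate as well, as the MADS-box genes LcAG and LcAP3-1 did, so the count says little by itself. The calls at 4-fold or more numbered 1204 higher and 395 lower, and those at 16-fold or more 381 higher and 86 lower. There were 193 called loci with 0 counts in all 3 m-carpel libraries and 47 with 0 counts in all 3 M-carpel libraries. A count of 0 allows up to 0.0957 to 0.117 CPM in a library, when 3 counts are taken as the floor, and this covers counting error only.

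Among the floral homeotic MADS-box genes, the B-class gene LcPI was higher in M-carpel, and the ovule and fruit genes LcSTK and LcSHP and the E-class gene LcSEP3 were lower. LcPI (LcMADS50, LITCHI011302), the PISTILLATA homologue, had 106, 113 and 106 CPM in M-carpel, against 5.15, 6.59 and 5.86 CPM in m-carpel. The lowest M-carpel library was thus far above the highest m-carpel library, and the level was 18.4-fold higher (log2 fold change 4.20 ± 0.14 (SE), adjusted p = 1.6e-13). M-stamen averaged 937 CPM of LcPI. With 12% of M-stamen subtracted from each M-carpel library the log2 fold change of LcPI was -1.46 (adjusted p = 0.0166), the opposite direction and not a call. The level of LcPI in M-carpel was 11.5% of that in M-stamen. Taking off 12% therefore leaves almost none of it, and the change of direction follows from the choice of fraction. LcSTK (LcMADS51, LITCHI011705), the homologue of SEEDSTICK, had 1.27, 1.69 and 2.32 CPM in M-carpel, against 12.9, 12.5 and 12.3 CPM in m-carpel. It was 7.14-fold lower in M-carpel (log2 fold change -2.84 ± 0.20 (SE), adjusted p = 2.07e-09), and F-carpel averaged 44.5 CPM, above both. LcSHP (LcMADS11, LITCHI026995) is related to SHATTERPROOF, which in Arabidopsis acts in the carpel margin and fruit. It had 19.5, 19.7 and 23 CPM in M-carpel, against 51, 48.2 and 50.6 CPM in m-carpel (log2 fold change -1.27 ± 0.09 (SE), adjusted p = 2.43e-09). LcSEP3 (LcMADS91, LITCHI004634) had the highest length-scaled level (FPKM) of the floral MADS-box genes in m-carpel. In CPM it had 319, 315 and 316 CPM in M-carpel, against 861, 876 and 873 CPM in m-carpel. The groups did not overlap, and it was 2.75-fold lower in M-carpel (log2 fold change -1.46 ± 0.04 (SE), adjusted p = 1.02e-14).

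The other 7 of the 11 floral MADS-box genes did not pass the test, several of them because the difference was below 2-fold. The partner of PISTILLATA in the B class, LcAP3-1 (LcMADS75, LITCHI006530), had 99.9, 108 and 97.3 CPM in M-carpel, against 64.4, 58.7 and 61.9 CPM in m-carpel, a log2 fold change of 0.72 with an adjusted p of 2.44e-09. LcAP3-2 (LcMADS45, LITCHI010203) averaged 2.9 ± 0.754 CPM in M-carpel and 4.21 ± 0.253 CPM in m-carpel and 67.9 CPM in F-carpel. The C-class gene LcAG (LcMADS65, LITCHI028933) had 203, 198 and 197 CPM in M-carpel, against 349.9, 346 and 318 CPM in m-carpel, a log2 fold change of -0.76. The remaining E-class genes differed less, at 0.22 for LcSEP1 (LcMADS100, LITCHI019333), -0.36 for LcSEP4 (LcMADS73, LITCHI023328) and -0.32 for LcSEP2 (LcMADS94, LITCHI005351), and the A-class gene LcAP1 (LcMADS95, LITCHI005352) stood at 0.79. Over the 11 genes the median log2 fold change was -0.36, with 1 called higher and 3 lower. The difference between M and m flowers was also tested against that in their stamens, as an interaction of flower type and organ, which passed at 17.7% of all loci. It passed for LcPI (interaction log2 fold change 3.67), LcSTK (-4.45), LcSHP (-1.84) and LcSEP3 (-1.22).

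**Figure D1:**
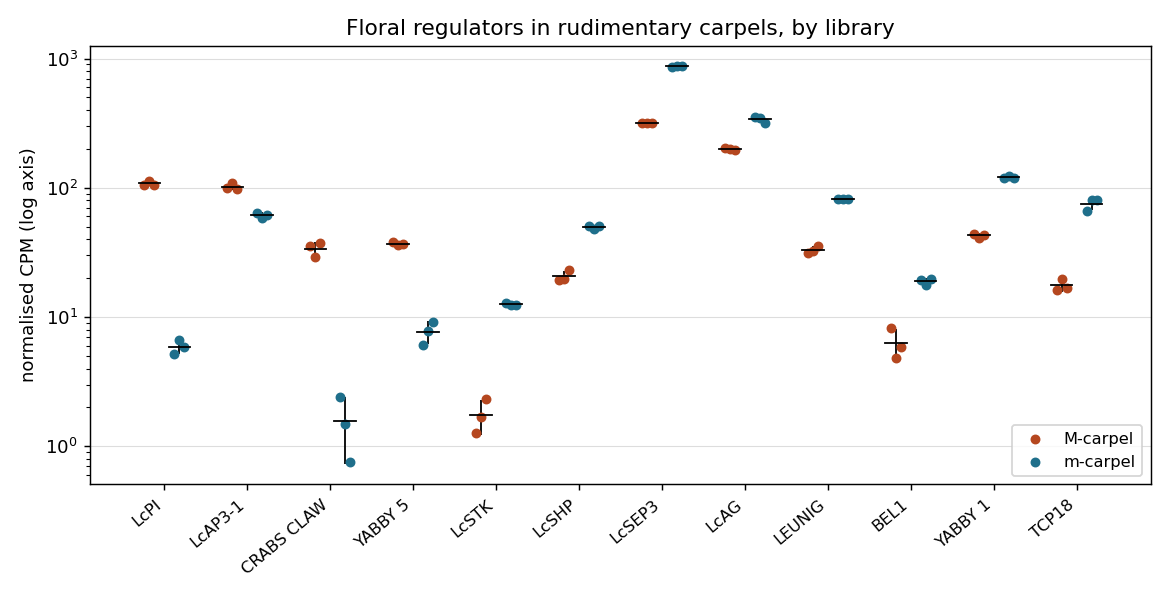
Normalised CPM (log axis) of named floral regulators in each library of M-carpel and m-carpel, with M-carpel on the left of each pair; points are libraries and bars are the mean with SD (n = 3 each). LcPI and CRABS CLAW lie higher in all M-carpel libraries, and LcSTK, LcSHP and LcSEP3 lie lower.

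Regulators of pistil growth outside the MADS family moved in both directions. CRABS CLAW (LITCHI005346), a YABBY factor that in Arabidopsis acts in carpels and nectaries, had 35.5, 29 and 37.1 CPM in M-carpel, against 2.42, 1.49 and 0.761 CPM in m-carpel. All 3 M-carpel libraries lay above all m-carpel libraries and above the F-carpel mean of 17.1 CPM. The level was 21.4-fold higher in M-carpel (log2 fold change 4.42 ± 0.23 (SE), adjusted p = 4.64e-11), and the stamens held 63.2 CPM in M flowers and 33.8 CPM in m flowers. YABBY factors mark the lower side of lateral organs. YABBY 5 (LITCHI016604) averaged 36.8 ± 0.857 CPM in M-carpel and 7.73 ± 1.58 CPM in m-carpel (log2 fold change 2.26), and YABBY 1 (LITCHI022829) averaged 42.9 ± 1.65 CPM in M-carpel and 120.4 ± 3.23 CPM in m-carpel (log2 fold change -1.49), so these 2 members moved in opposite directions. LEUNIG (LITCHI016693), a co-repressor that limits AGAMOUS in Arabidopsis, averaged 33.2 ± 2.06 CPM in M-carpel and 81.6 ± 0.354 CPM in m-carpel, and a BELL1 homologue (LITCHI022058), named for an Arabidopsis gene of integument identity, averaged 6.33 ± 1.72 CPM in M-carpel and 19 ± 1.03 CPM in m-carpel. Both were lower in M-carpel, with log2 fold changes of -1.30 and -1.58. BEL1-like homeodomain protein 1 (LITCHI024352) had 379, 395 and 392 CPM in M-carpel, against 824, 827 and 834 CPM in m-carpel, a log2 fold change of -1.09 ± 0.06 (SE), and F-carpel held 7.51 CPM.

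TCP, SPL and growth-regulating factors control how long cells of a young organ divide and when they mature. Of 63 such organ growth factors tested, YABBY genes included, 3 were called higher (4.76%, against 9.95% of all loci) and 12 lower (19%, against 4.8%), with a median log2 fold change of -0.43. The 4 called TCP loci of 18 and the 4 called SPL loci of 20 were all lower. TCP18 (LITCHI023214), related to the branching repressor BRANCHED1 of Arabidopsis, had 16.3, 19.7 and 16.8 CPM in M-carpel, against 65.6, 80 and 80.2 CPM in m-carpel and was 4.28-fold lower (log2 fold change -2.10 ± 0.18 (SE), adjusted p = 3.7e-08). SPL16 (LITCHI004632) averaged 10.2 ± 0.376 CPM in M-carpel and 33 ± 0.665 CPM in m-carpel (log2 fold change -1.69). Each of the 12 lower members had a higher mean in m-carpel than in m-stamen, as did 937 of all 1183 lower loci. Of 29 carpel and ovule loci, 3 were called higher (10.3%, near the 9.95% of all loci) and 6 lower (20.7%, against 4.8%), with a median of -0.25. The list summed to 3747 to 3847 CPM in M-carpel and 4654 to 4748 CPM in m-carpel.

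A stamen share in M-carpel was examined with 1131 stamen-high loci, which were set from the stamens and F-carpel without any of the 6 libraries compared. Of these, 288 (25.5%) were called higher in M-carpel and 21 (1.86%) lower, against 2008 (8.92%) higher and 1060 (4.71%) lower of 22505 loci that were neither stamen-high nor carpel-high. Their summed level was 5553 to 5768 CPM in M-carpel and 2942 to 3159 CPM in m-carpel, while M-stamen held 69761 to 74233 CPM and m-stamen 173888 to 176819 CPM. At the median stamen-high locus the M-carpel mean was 6.12% of the M-stamen mean (interquartile range 3.94% to 9.52%), and the m-carpel mean was 1.01% of the m-stamen mean (0.287% to 2.25%). Of 1030 carpel-high loci, set in the same way from F-carpel, 159 (15.4%) were called higher and 102 (9.9%) lower. Both shares were above the 8.92% and 4.71% of the loci in neither class. The carpel-high loci summed to 8399 to 8512 CPM in M-carpel and 5534 to 5691 CPM in m-carpel. In whole organs, fewer cells of a type and less RNA per cell cannot be told apart.

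Named stamen and pollen genes did not move as 1 group. Of 44 loci tested, 11 were called higher (25%, against 9.95% of all loci) and 5 lower (11.4%, against 4.8%), with a median log2 fold change of 0.04, and the list summed to 1808 to 1870 CPM in M-carpel and 1190 to 1241 CPM in m-carpel. Many members are used outside the stamen, for example Pollen-specific protein C13 (LITCHI010442), which F-carpel also held. LAT52 (LITCHI013059), an abundant protein of mature pollen, had 53.8, 52.1 and 50.5 CPM in M-carpel, against 19.6, 17.1 and 23.9 CPM in m-carpel (log2 fold change 1.37 ± 0.10 (SE)). These levels were 5.14% of M-stamen and 0.789% of m-stamen. The pollen allergens Ole e 6 (LITCHI014844 and LITCHI026197) averaged 38.6 ± 2.33 CPM in M-carpel and 16.9 ± 1.82 CPM in m-carpel, and 16 ± 1.5 CPM in M-carpel and 4.24 ± 1.41 CPM in m-carpel. Both passed the test, at log2 fold changes of 1.19 and 1.92. Other pollen genes did not pass the test. A pollen-specific leucine-rich repeat extensin (LITCHI001696) had 98.8, 96 and 99.2 CPM in M-carpel, against 99.3, 98.8 and 113 CPM in m-carpel (log2 fold change -0.08 ± 0.06 (SE), adjusted p = 0.313), and pollen receptor-like kinase 1 (LITCHI016486) had 10.4, 11.7 and 8.77 CPM in M-carpel, against 8.86, 10.5 and 10.7 CPM in m-carpel (log2 fold change 0.04 ± 0.10 (SE), adjusted p = 0.789). LcMADS46 (LITCHI010419) belongs to the MIKC* class of MADS-box genes, some of which act in pollen in Arabidopsis, and it was called higher. It had 29, 41 and 21 counts in M-carpel, against 4, 7 and 13 counts in m-carpel (log2 fold change 1.99 ± 0.41 (SE), adjusted p = 0.00066). The MIKC* genes LcMADS47 and LcMADS93 overlapped between the groups. LcMADS47 (LITCHI010424) had 26, 25 and 32 counts in M-carpel, against 14, 12 and 45 counts in m-carpel. LcMADS93 (LITCHI005193) had 99, 69 and 115 counts in M-carpel, against 105, 114 and 88 counts in m-carpel. Of the 44 loci, a second LAT52 locus (LITCHI008127) and a pair of ligase loci described next were at 0 counts in every M-carpel library, and LITCHI008127 and a second ABORTED MICROSPORES locus (LITCHI004937) in every m-carpel library.

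As an alternative, 6% or 12% of the M-stamen mean was taken off each M-carpel library before the fit, and nothing was taken off m-carpel. The smaller fraction is close to the median share of the stamen-high loci given above, so the loss of stamen-high calls follows from the choice of fraction and is given as a description. With 6% taken off, 1960 of the 2455 higher loci (79.8%) were still called higher, and of the 288 stamen-high ones 45. With 12% taken off, 1731 (70.5%) were still called, and 32 stamen-high ones. LcPI in M-carpel stood at 11.5% of its M-stamen level. M-carpel exceeded M-stamen itself at 787 (32.1%) of the 2455 loci. The same share over all tested loci was not counted, so the 32.1% has no direct background. Over all tested loci with counts in M-stamen, the median M-carpel mean was 97.3% of the M-stamen mean (interquartile range 54% to 151.9%).

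The 5 lower calls of the stamen and pollen list carry names known from the tapetum, the tissue that lines the anther and makes sporopollenin, the wall polymer of pollen. The loci named here were chosen from the list after their values were seen. Not all loci with such names fell. LITCHI004425 and LITCHI004433 share the description tetraketide pyrone reductase with the lower LITCHI002216, and both were higher in M-carpel. A pair of loci described as 4-coumarate-CoA ligase-like 1 (LITCHI004650 and LITCHI004645) had 0 counts in every M-carpel library, against 230, 194 and 182 counts and 217, 159 and 189 counts in m-carpel. The pair was at least 59.9-fold and at least 55.9-fold lower, taking 3 counts per library as the floor. They share a description, their sequences were not compared, and reads could have been split between them if they are alike. ABORTED MICROSPORES (LITCHI002043), the tapetal regulator, had 0, 2 and 0 counts in M-carpel, against 51, 125 and 59 counts in m-carpel (log2 fold change -6.55 ± 1.08 (SE), adjusted p = 0.000121). CYP703A2 (LITCHI026872), an enzyme of the sporopollenin precursors, had 2, 0 and 2 counts in M-carpel, against 50, 70 and 94 counts in m-carpel (log2 fold change -5.57 ± 0.63 (SE), adjusted p = 1.01e-06). The levels in m-carpel were low, a few CPM each, and the m-stamen mean was 0 CPM for the ligase pair and ABORTED MICROSPORES. F-stamen averaged 34 CPM of ABORTED MICROSPORES and 5.47 CPM of CYP703A2, above the m-carpel means of 2.67 and 2.5 CPM. It held less than m-carpel of the ligase pair (0.093 and 0.0306 CPM) and of LITCHI002216 (1.71 CPM).

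Most photosynthesis genes were lower in M-carpel. Of 57 tested loci for the light reactions and carbon fixation, 36 (63.2%, against 4.8% of all loci) were called lower and 1 higher, and the median log2 fold change was -1.78. The 57 loci summed to 834 to 885 CPM in M-carpel and 3566 to 3846 CPM in m-carpel, and F-carpel lay between at 2133 to 2508 CPM. At 33 of the 36 lower loci the m-carpel mean was above the m-stamen mean, as it was at 937 of all 1183 lower loci. In the stamens 3 of the 57 were higher (5.84% of all loci) and 4 lower (7.3% of all loci) in M than m flowers, with a median of 0.19. The interaction passed at 1 locus in the higher direction (11% of all loci) and at 32 in the lower direction (6.76% of all loci).

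All parts of the photosynthetic machinery had called members. The small subunit of Rubisco, the enzyme that fixes carbon dioxide, is encoded at LITCHI008481, which had 40, 43.7 and 44.1 CPM in M-carpel, against 933, 946 and 977 CPM in m-carpel. It was 22.3-fold lower in M-carpel (log2 fold change -4.48 ± 0.08 (SE), adjusted p = 9.86e-17), and F-carpel averaged 137 CPM. A second small subunit locus (LITCHI016391) was the exception and had 26.5, 27.9 and 26.5 CPM in M-carpel, against 5.35, 3.71 and 3.04 CPM in m-carpel (log2 fold change 2.73 ± 0.15 (SE), adjusted p = 1e-10). Rubisco activase (LITCHI027700), which keeps the enzyme active, had 15.6, 16.5 and 16.2 CPM in M-carpel, against 232, 248 and 242 CPM in m-carpel, a log2 fold change of -3.90 ± 0.10 (SE). Of 21 antenna proteins, which gather light, 14 were lower, with a median of -1.52. The counts were 8 of 13 for photosystem I, 7 of 13 for photosystem II with its oxygen-evolving proteins, and 4 of 4 for the cytochrome b6-f complex, plastocyanin and ferredoxin reductase. Oxygen-evolving enhancer protein 1 (LITCHI006733), which shields the site that splits water, had 20, 19.4 and 18 CPM in M-carpel, against 164, 168 and 172 CPM in m-carpel (log2 fold change -3.14 ± 0.12 (SE), adjusted p = 6.12e-13). Photosystem I subunit N (LITCHI007476) averaged 1.43 ± 0.903 CPM in M-carpel and 23.5 ± 0.169 CPM in m-carpel (log2 fold change -4.04 ± 0.38 (SE)).

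**Figure D2:**
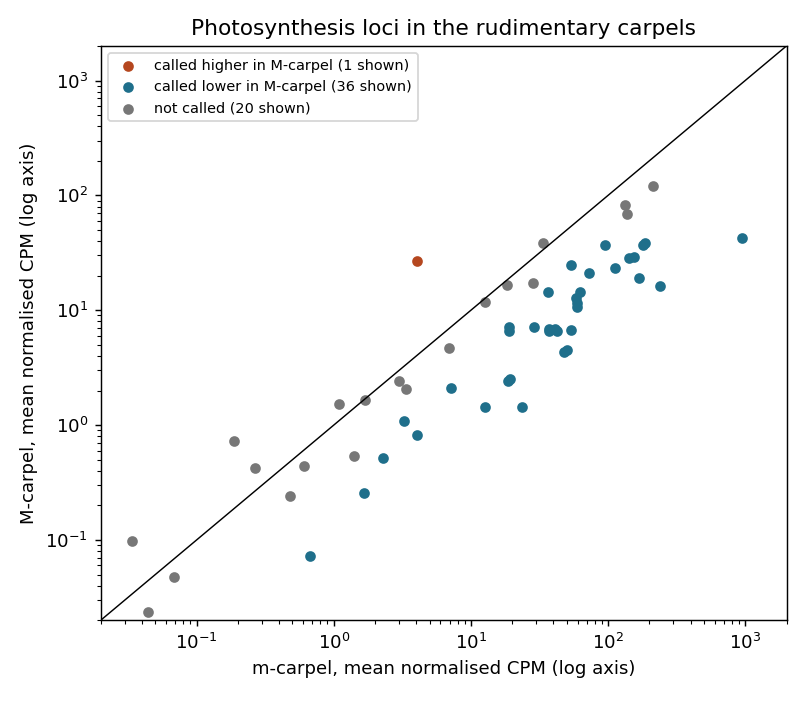
Mean normalised CPM of the 57 photosynthesis loci in M-carpel (vertical, log axis) against m-carpel (horizontal, log axis); each point is a locus, coloured by whether it was called, and the diagonal marks equal levels. Most points lie below the diagonal, 36 called lower and 1 called higher in M-carpel.

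Chlorophyll synthesis and the plastid carbon enzymes were lower only in part. Of 56 tested loci, in a list added after values were seen, 14 were lower (25%, against 4.8% of all loci) and 7 higher (12.5%, against 9.95%), with a median of -0.16. Subunit ChlH of magnesium chelatase inserts magnesium into the chlorophyll ring. Its locus LITCHI008874 had 11.5, 9.81 and 11.1 CPM in M-carpel, against 125, 136 and 132 CPM in m-carpel (log2 fold change -3.60 ± 0.08 (SE), adjusted p = 8.68e-16). A second locus described as ChlH (LITCHI008866) had 0, 5.2 and 4.99 CPM in M-carpel, against 72, 79.3 and 87.3 CPM in m-carpel (log2 fold change -4.56 ± 1.19 (SE), adjusted p = 0.00438). In this second locus 1 M-carpel library was at 0, and the call was lost with DESeq2 (adjusted p = 0.0291) and without any single M-carpel library or m-carpel replicate 3 (adjusted p 0.0106 to 0.016 in edgeR). The sequences of both loci were not compared, and reads could have been split if they are alike. Chloroplast glyceraldehyde-3-phosphate dehydrogenase (LITCHI020876), an enzyme of the Calvin cycle, had 7.22, 5.27 and 7.49 CPM in M-carpel, against 146, 158 and 158 CPM in m-carpel (log2 fold change -4.53 ± 0.12 (SE), adjusted p = 1.01e-14). Carbonic anhydrases, which interconvert carbon dioxide and bicarbonate, were higher. The locus newGene_5979 averaged 115 ± 6.43 CPM in M-carpel and 12.9 ± 0.221 CPM in m-carpel (log2 fold change 3.16) and LITCHI018860 averaged 20.1 ± 1.38 CPM in M-carpel and 6.44 ± 1.03 CPM in m-carpel (log2 fold change 1.64). M-stamen held 450.2 CPM of LITCHI018860, and with 6% of M-stamen taken off its log2 fold change was -10.56. B-box protein 19 (LITCHI006504), a zinc finger regulator of light responses in Arabidopsis, had 3.54, 1.66 and 2.68 CPM in M-carpel, against 63.3, 66.7 and 61.3 CPM in m-carpel (log2 fold change -4.60 ± 0.26 (SE), adjusted p = 1.86e-10).

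Genes of the circadian clock, the oscillator that sets daily rhythms, differed in both organs. The list was added after values were seen. Of 19 tested loci 8 were lower in M-carpel (42.1%, against 4.8% of all loci) and 0 higher, with a median of -0.65, and in the stamens 7 were lower in M than m flowers and 0 higher, with a median of -0.85. LHY (LITCHI026770), a morning-phased repressor, had 16.6, 10.9 and 14.2 CPM in M-carpel, against 519, 418 and 404 CPM in m-carpel and was 32.2-fold lower (log2 fold change -5.01 ± 0.18 (SE), adjusted p = 2.47e-13). In stamens the log2 fold change of LHY was -2.20, and the interaction passed at -2.81. LNK3 (LITCHI019895), of a family that acts with the morning factors, averaged 8.92 ± 0.8 CPM in M-carpel and 111 ± 0.721 CPM in m-carpel (log2 fold change -3.63 in carpels and -1.65 in stamens). The pseudo-response regulator APRR5 (LITCHI012124) had 108, 103 and 108 CPM in M-carpel, against 446, 444 and 416 CPM in m-carpel, a log2 fold change of -2.03 ± 0.05 (SE) in carpels and of -1.82 in stamens, and its interaction did not pass. GIGANTEA (LITCHI011520), an evening gene, had 948, 912 and 929 CPM in M-carpel, against 789, 831 and 758 CPM in m-carpel, a difference below 2-fold. APRR1 (LITCHI023430), also called TOC1 in Arabidopsis, had a log2 fold change of -0.51. Without the hour of collection of each flower type, the hour and the flower type cannot be told apart for these genes or for the photosynthesis genes, many of which follow a daily rhythm.

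**Figure D3:**
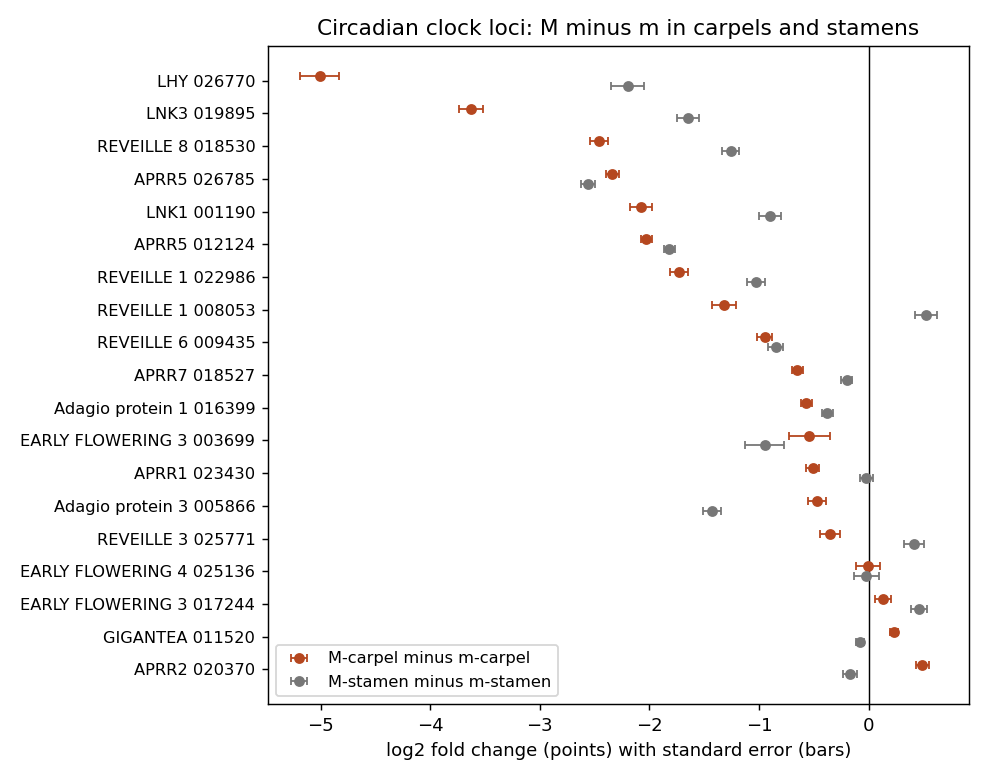
Log2 fold change of M over m flowers for the 19 clock loci in carpels and in stamens, as points with SE. LHY stands lowest in carpels at -5.01, and 7 of the 8 loci called lower in carpels also lie below 0 in stamens.

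Flavonoids include flavonols, anthocyanins and condensed tannins, and the called genes of the pathway were mostly higher in M-carpel. Of 69 tested loci 23 were called higher (33.3%, against 9.95% of all loci) and 3 lower (4.35%, against 4.8%), with a median log2 fold change of 0.85. The list summed to 5552 to 5616 CPM in M-carpel and 1698 to 1806 CPM in m-carpel, and was highest in F-carpel at 13215 to 15008 CPM. Of the 23 higher loci 1 was stamen-high, against 288 of all 2455 higher loci, and 11 (47.8%) were above M-stamen, against 32.1%. The stamen-high class requires a level far above F-carpel, so loci high in F-carpel could hardly enter it. Chalcone synthase 2 (LITCHI015108), the entry enzyme of the pathway, had 1737, 1790.3 and 1728 CPM in M-carpel, against 385, 374 and 426 CPM in m-carpel (log2 fold change 2.15 ± 0.05 (SE), adjusted p = 3.5e-15). M-stamen averaged 158 CPM, below both carpels. Of 9 loci for chalcone synthase and isomerase 4 were higher, with a median of 1.82. Flavonol synthase or flavanone 3-hydroxylase (LITCHI011187) had 822, 767 and 815 CPM in M-carpel, against 166, 164 and 164 CPM in m-carpel (log2 fold change 2.28 ± 0.05 (SE), adjusted p = 5.66e-16). Here the stamens held more than M-carpel, at 868 CPM in M-stamen and 1179 CPM in m-stamen.

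The later steps, which make the building blocks of tannins, had higher members too. Of 18 loci for dihydroflavonol and leucoanthocyanidin steps 10 were called higher and 0 lower, with a median of 1.29. Leucoanthocyanidin reductase (LITCHI023217), which makes catechin, had 219, 205 and 209.7 CPM in M-carpel, against 5.02, 4.97 and 3.31 CPM in m-carpel. It was 47.3-fold higher (log2 fold change 5.57 ± 0.16 (SE), adjusted p = 1.98e-14), and M-stamen averaged 17.5 CPM. Dihydroflavonol 4-reductase (LITCHI010261) had 188, 191 and 196 CPM in M-carpel, against 25.1, 24.3 and 27.8 CPM in m-carpel (log2 fold change 2.90 ± 0.06 (SE), adjusted p = 9.25e-16). Leucoanthocyanidin dioxygenase (LITCHI022925) averaged 191 ± 7.71 CPM in M-carpel and 48.4 ± 1.72 CPM in m-carpel, and anthocyanidin reductase (LITCHI029356), which makes epicatechin, averaged 193 ± 5.06 CPM in M-carpel and 34.8 ± 1.28 CPM in m-carpel. Their log2 fold changes were 1.98 and 2.47, and F-carpel held more of each, at 1339.6 and 1153 CPM. Among 22 flavonoid glycosyltransferases 5 were higher and 1 lower.

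Phenylpropanoid and lignin genes share the first steps with flavonoids, and those called were mostly higher as well. Of 103 tested loci 33 were higher (32%, against 9.95% of all loci) and 2 lower (1.94%, against 4.8%), with a median of 0.57, and the sum was 10366 to 10484 CPM in M-carpel and 6459 to 6530 CPM in m-carpel. Of the 10 loci for phenylalanine ammonia-lyase, cinnamate hydroxylase and coumarate ligase 7 were higher and 0 lower. Laccase-7 (LITCHI018291), of a family that links lignin or tannin units by oxidation, had 1282, 1279 and 1252 CPM in M-carpel, against 67.3, 69.2 and 74.4 CPM in m-carpel. The groups lay far apart, and the level was 18.1-fold higher (log2 fold change 4.18 ± 0.08 (SE), adjusted p = 9.86e-17). F-carpel averaged 84 CPM of it and M-stamen 196 CPM. Caffeoyl-CoA O-methyltransferase (LITCHI017676), a lignin enzyme, had 852, 914 and 916 CPM in M-carpel, against 82.6, 79.2 and 85.5 CPM in m-carpel (log2 fold change 3.44 ± 0.07 (SE), adjusted p = 3.47e-16), and M-stamen held 25.3 CPM. CYP84A1 (LITCHI001912), the ferulate 5-hydroxylase of syringyl lignin in Arabidopsis, had 134, 139 and 146 CPM in M-carpel, against 7.15, 5.53 and 6.62 CPM in m-carpel (log2 fold change 4.44 ± 0.08 (SE), adjusted p = 8.93e-17). Here M-stamen held more, 403 CPM.

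**Figure D4:**
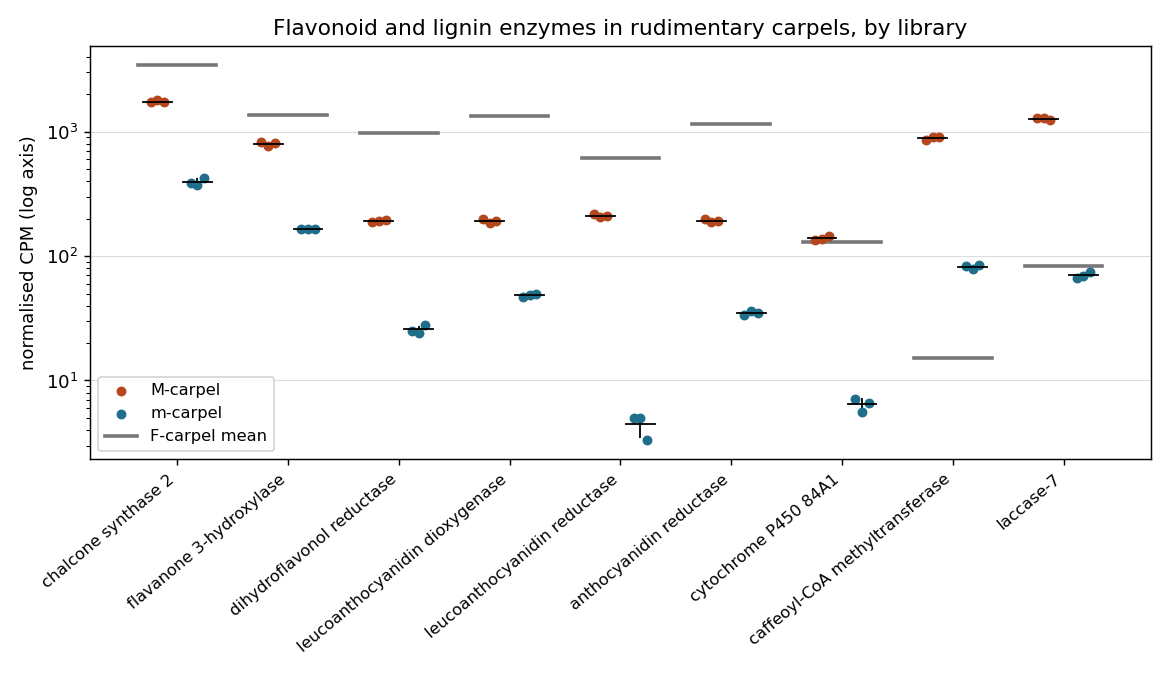
Normalised CPM (log axis) of named flavonoid and lignin genes in each library of M-carpel (left of each pair) and m-carpel, as points with mean and SD (n = 3 each). Every gene shown was higher in all M-carpel libraries, with log2 fold changes of 1.98 for leucoanthocyanidin dioxygenase to 5.57 for leucoanthocyanidin reductase.

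Many genes of the cell wall and of surface lipids were higher in M-carpel. Of 101 loci for expansins, xyloglucan enzymes and cellulose 34 were higher (33.7%, against 9.95% of all loci) and 5 lower (4.95%, against 4.8%; median 0.46), and of 135 pectin enzymes 41 were higher (30.4%) and 2 lower (1.48%; median 0.65). Of 162 loci for lipid transfer and cuticle 54 were higher (33.3%) and 7 lower (4.32%; median 0.78). Most of these higher loci had more in M-stamen, since M-carpel was above M-stamen at only 5 of the 34, 6 of the 41 and 4 of the 54. Of the 41 pectin loci 11 were stamen-high. Expansins loosen walls during growth, and 12 of 25 were higher and 1 lower. Expansin-A4 (LITCHI024918) had 46.5, 43.6 and 38.6 CPM in M-carpel, against 1.51, 2.45 and 1.86 CPM in m-carpel (log2 fold change 4.46 ± 0.14 (SE), adjusted p = 6.75e-14), with 444 CPM in M-stamen. The 1 lower expansin moved further than any higher one. Expansin-like B1 (LITCHI022703) had 8.6, 6.2 and 5.1 CPM in M-carpel, against 393, 347 and 385 CPM in m-carpel and was 56.5-fold lower (log2 fold change -5.82 ± 0.13 (SE), adjusted p = 1.14e-15). Its stamen levels were 46.2 and 85.3 CPM in M and m flowers. Endoglucanase 6 (LITCHI021946) averaged 120.2 ± 7.63 CPM in M-carpel and 5.15 ± 1.37 CPM in m-carpel (log2 fold change 4.55), and 9 of 18 endoglucanases were higher. Cellulose synthase-like protein G3 (LITCHI021896) averaged 22.4 ± 1.5 CPM in M-carpel and 82.2 ± 3.54 CPM in m-carpel and was lower at -1.87.

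Among the surface lipid genes, GDSL esterase At4g16230 (LITCHI014353), of a family of lipid-cleaving enzymes, had 25.1, 26.3 and 22.9 CPM in M-carpel, against 0.612, 0.53 and 0.609 CPM in m-carpel, and was 42.1-fold higher (log2 fold change 5.4 ± 0.09 (SE), adjusted p = 6.23e-17). Lipid transfer protein EARLI 1 (LITCHI022810) averaged 41.1 ± 3.7 CPM in M-carpel and 1.23 ± 0.25 CPM in m-carpel (log2 fold change 5.06). In contrast the DIR1-type lipid-transfer locus LITCHI015740 averaged 7.87 ± 0.487 CPM in M-carpel and 57.4 ± 2.59 CPM in m-carpel and was lower, at -2.87. CYP86A1 (LITCHI025084), a fatty acid hydroxylase of suberin, was lower at -1.51. Of the pectin enzymes, a pectinesterase (LITCHI012494) averaged 68.6 ± 3.77 CPM in M-carpel and 9.76 ± 1.13 CPM in m-carpel and pectinesterase inhibitor 6 (LITCHI026451) averaged 117 ± 2.89 CPM in M-carpel and 17.4 ± 0.911 CPM in m-carpel. Both were higher, at 2.82 and 2.75. A further pair of pectinesterase inhibitors was lower, with log2 fold changes of -2.25 (LITCHI002470) and -1.12 (LITCHI022836).

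**Figure D5:**
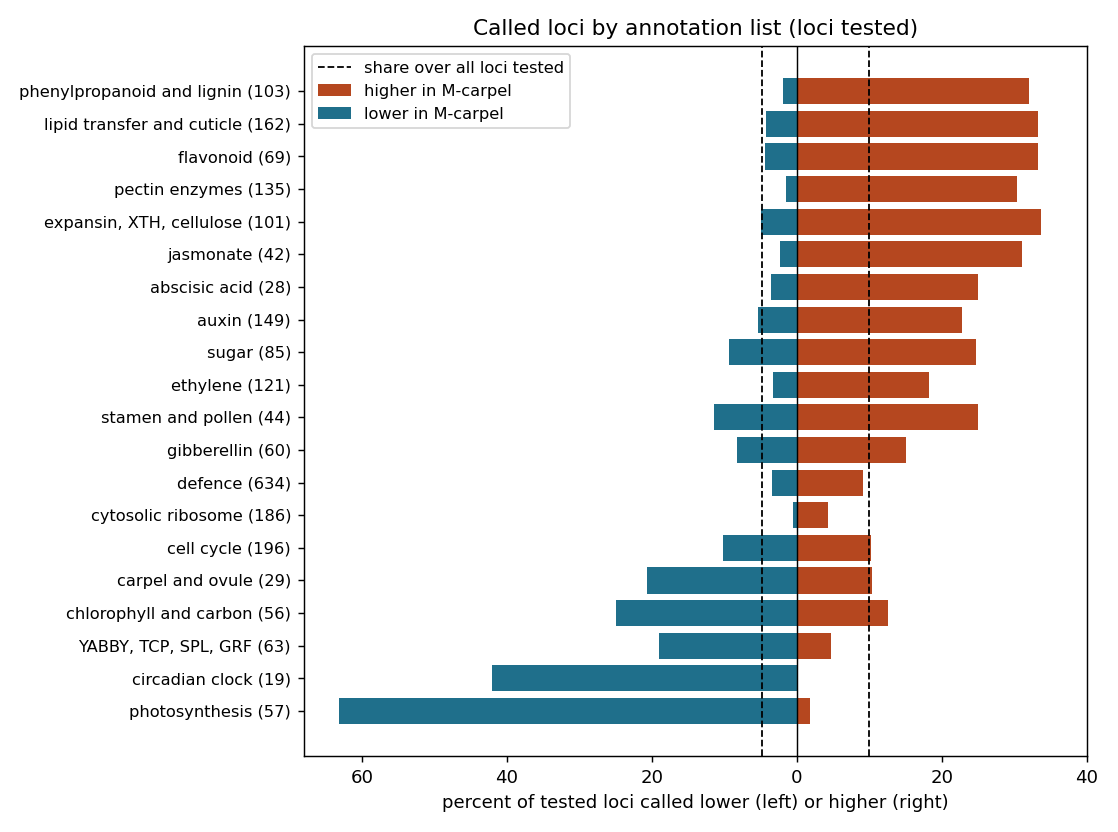
Percent of the tested loci of each annotation list that were called lower (bars to the left) or higher (bars to the right) in M-carpel than m-carpel, with the number of loci tested beside each name. Photosynthesis reaches 63.2% on the lower side, and the lists of the cell wall, lipid transfer and flavonoids reach 33.7%, 33.3% and 33.3% on the higher side.

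The share of hormone loci called higher, against 9.95% of all loci, was 31% for jasmonate, 25% for abscisic acid, 22.8% for auxin, 18.2% for ethylene, 15% for gibberellin and 6.82% for cytokinin. The share called lower, against 4.8% of all loci, was 2.38%, 3.57%, 5.37%, 3.31%, 8.33% and 11.4% in the same order. Abscisic acid is made from carotenoids by 9-cis-epoxycarotenoid dioxygenases. The dioxygenase NCED6 (LITCHI015114) had 69.5, 66.6 and 57.1 CPM in M-carpel, against 1.06, 0.728 and 0.685 CPM in m-carpel. It was 77.1-fold higher in M-carpel (log2 fold change 6.27 ± 0.18 (SE), adjusted p = 1.38e-14), and M-stamen averaged 131 CPM. The dioxygenase NCED1 (LITCHI012579) averaged 57.7 ± 4.9 CPM in M-carpel and 19.1 ± 1.28 CPM in m-carpel (log2 fold change 1.60), and M-stamen held only 3.07 CPM of it. Of 28 abscisic acid loci 7 were higher and 1 lower, with a median of 0.01, and the lower one, a locus related to ABSCISIC ACID-INSENSITIVE 5 (LITCHI001602), averaged 58.5 ± 4.93 CPM in M-carpel and 143 ± 1.89 CPM in m-carpel. Jasmonate, which matters for anther opening in Arabidopsis, had 13 of 42 loci higher and 1 lower (median 0.69). Among the 29 loci for its synthesis 10 were higher. Allene oxide synthase 1 (LITCHI011121) had 748, 726 and 727 CPM in M-carpel, against 337, 351 and 347 CPM in m-carpel (log2 fold change 1.09 ± 0.04 (SE), adjusted p = 2.28e-13). Allene oxide synthase 3 (LITCHI001739) averaged 30.7 ± 0.421 CPM in M-carpel and 3.45 ± 0.592 CPM in m-carpel, and oxophytodienoate reductase (LITCHI011713) averaged 66.4 ± 3.09 CPM in M-carpel and 13.9 ± 0.399 CPM in m-carpel, both higher at 3.16 and 2.26. TIFY 6B (LITCHI023042), a JAZ-type repressor of jasmonate responses, was lower at -1.22.

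Auxin genes counted 34 higher and 8 lower of 149 (median 0.27). GH3 enzymes join auxin or jasmonate to amino acids, and 6 of 10 were higher and 1 lower. GH3.1 (LITCHI006968) had 197, 196 and 198 CPM in M-carpel, against 15.2, 16.2 and 17.1 CPM in m-carpel (log2 fold change 3.61 ± 0.07 (SE), adjusted p = 8.67e-17), which was above the M-stamen mean of 26.8 CPM. The auxin carrier LITCHI011182 averaged 31.6 ± 4.41 CPM in M-carpel and 4.11 ± 0.739 CPM in m-carpel (log2 fold change 2.94). The repressor IAA26 (LITCHI030462) averaged 64.9 ± 5.11 CPM in M-carpel and 230.5 ± 3.76 CPM in m-carpel and auxin response factor 2B (LITCHI004564) averaged 9.43 ± 0.68 CPM in M-carpel and 25 ± 3.6 CPM in m-carpel. Both were lower, at -1.83 and -1.41. Ethylene counted 22 higher and 4 lower of 121 (median 0.15). An ACC oxidase (LITCHI021364), which catalyses the last step to ethylene, was among the lower ones and had 189, 188 and 191 CPM in M-carpel, against 581, 597 and 640.5 CPM in m-carpel (log2 fold change -1.68 ± 0.06 (SE), adjusted p = 1.59e-13). The factor RAP2-7 (LITCHI027926) averaged 149 ± 3.99 CPM in M-carpel and 50.9 ± 0.481 CPM in m-carpel (log2 fold change 1.55). The AP2-like factor AIL1 (LITCHI030251) was higher at 1.36, and ethylene response factor 1B (LITCHI026054) was lower at -1.66.

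Gibberellin counted 9 higher and 5 lower of 60 (median 0.14). Members of the GAST family of small cysteine-rich peptides, many of which respond to gibberellin, were far apart. Snakin-1 (LITCHI010863) had 58.1, 45.1 and 50.9 CPM in M-carpel, against 1.51, 1.26 and 1.22 CPM in m-carpel and GAST1 (LITCHI023626) had 63, 56.1 and 62.4 CPM in M-carpel, against 1.71, 2.52 and 1.86 CPM in m-carpel. They were 38.4-fold and 29.7-fold higher, with adjusted p of 2.19e-15 and 1.85e-15. Both were higher still in M-stamen, at 103 and 235 CPM. M-carpel was above M-stamen at 0 of the 9 higher gibberellin loci, against 32.1% of all higher loci. Snakin-2 (LITCHI010129) averaged 19.8 ± 1.91 CPM in M-carpel and 77.7 ± 2.41 CPM in m-carpel and was lower at -1.97, as was a gibberellin 2-beta-dioxygenase (LITCHI025158), which inactivates the hormone, at -1.90. Cytokinin counted 3 higher and 5 lower of 44 (median -0.14). A LOG-type activating enzyme (LITCHI024277) was higher at 1.66, and the response regulator ARR11 (LITCHI004770) and cytokinin dehydrogenase 1 (LITCHI008772), which degrades the hormone, were lower at -1.49 and -1.08.

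A pair of lectin loci took more counts in m-carpel than any other locus, and both were lower in M-carpel. They are described as mannose/glucose-specific lectins, and lectins are proteins that bind sugars. The 22 tested loci summed to 5363 to 5722 CPM in M-carpel and 50738 to 53615 CPM in m-carpel. Litchi_chinensis_newGene_2823 had 2842, 2545 and 2808 CPM in M-carpel, against 30612, 29055 and 29554 CPM in m-carpel, and LITCHI028104 had 2393, 2320.4 and 2371 CPM in M-carpel, against 22756, 21448 and 22007 CPM in m-carpel. In these libraries they were 10.9-fold and 9.35-fold lower in M-carpel, with log2 fold changes of -3.44 ± 0.08 and -3.22 ± 0.06 (SE). On the length-scaled FPKM values they averaged 2558 ± 272 FPKM in M-carpel and 26559 ± 1019.7 FPKM in m-carpel, and 1758 ± 108 FPKM in M-carpel and 15843 ± 589.9 FPKM in m-carpel. Another locus of the same description, Litchi_chinensis_newGene_3821, had 140.2, 143 and 148 CPM in M-carpel, against 9.02, 9.17 and 7.46 CPM in m-carpel and was higher (log2 fold change 4.07 ± 0.08 (SE), adjusted p = 9.49e-17). The sequences of these loci were not compared, and reads could have been split between any that are alike. A locus described as an agglutinin (LITCHI028507) had 40.3, 35.8 and 42.5 CPM in M-carpel, against 0.644, 0.0662 and 0 CPM in m-carpel (log2 fold change 7.29 ± 0.43 (SE)). By count 6 of the 22 lectins were higher (27.3%, against 9.95% of all loci) and 2 lower (9.09%, against 4.8%), with a median of 0.74, so the sum and the median had opposite directions.

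Sugar supply genes counted 21 higher (24.7%, against 9.95% of all loci) and 8 lower (9.41%, against 4.8%) of 85, with a median of 0.29. NEC1 (LITCHI003451), a sugar exporter of the SWEET family first known from Petunia nectaries, had 109, 97.7 and 115 CPM in M-carpel, against 4.06, 4.5 and 2.36 CPM in m-carpel and was 29.2-fold higher (log2 fold change 4.87 ± 0.16 (SE), adjusted p = 6.69e-14). Cell wall invertase (LITCHI030803), which splits sucrose outside the cell, had 58.7, 53.5 and 58.5 CPM in M-carpel, against 8.34, 5.16 and 4.87 CPM in m-carpel (log2 fold change 3.21 ± 0.17 (SE), adjusted p = 6.41e-11). Both were higher still in M-stamen, at 201 and 339.8 CPM. A sucrose transporter of the SUC1 type (LITCHI011600) and SWEET2a (LITCHI028925) were lower, at -1.83 and -1.83. Terpene synthases, which make volatile or defensive terpenes, were higher in 6 of 32 (18.8%) and lower in 0 (median 0.00). Limonene synthase (LITCHI029391) had 237, 212 and 225 CPM in M-carpel, against 16.2, 20.5 and 18 CPM in m-carpel (log2 fold change 3.62 ± 0.09 (SE), adjusted p = 2.47e-15), and terpene synthase 9 (LITCHI021197) had 33.1, 29.3 and 30.9 CPM in M-carpel, against 0.0966, 0.199 and 0 CPM in m-carpel, which rests on near 0 levels in m-carpel.

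Defence genes as a list stood near the background. Of 634 loci, 58 (9.15%, against 9.95% of all loci) were higher and 22 (3.47%, against 4.8%) lower, with a median of 0.09. Single members moved far. Thaumatin-like protein 1 (LITCHI018696), an antifungal protein type, had 266, 257 and 244 CPM in M-carpel, against 17.7, 17.1 and 15.8 CPM in m-carpel (log2 fold change 3.92 ± 0.09 (SE), adjusted p = 2.14e-15), and a defensin (LITCHI006232) averaged 39.8 ± 4.49 CPM in M-carpel and 2.29 ± 0.564 CPM in m-carpel (log2 fold change 4.13). WRKY30 (LITCHI009517) averaged 2.14 ± 0.388 CPM in M-carpel and 21.6 ± 0.455 CPM in m-carpel and was lower at -3.33, and WRKY21 (LITCHI022818) was lower at -2.13. DMR6-LIKE OXYGENASE 2 (LITCHI001230), of a small Arabidopsis family of salicylic acid hydroxylases, had 14, 12.2 and 14.7 CPM in M-carpel, against 156, 156 and 159 CPM in m-carpel (log2 fold change -3.52 ± 0.12 (SE), adjusted p = 1.59e-13). Among specialised metabolism genes of no list, berberine bridge enzyme-like (LITCHI023026), beta-glucosidase 13 (LITCHI004342) and anthranilate N-methyltransferase (LITCHI026774) were 20.7-fold, 18.7-fold and 18.9-fold higher. The berberine bridge type had 112, 105 and 112 CPM in M-carpel, against 5.09, 6.06 and 4.68 CPM in m-carpel, above the M-stamen mean of 49.4 CPM. Beta-glucosidase 13 and anthranilate N-methyltransferase averaged 303 and 64.8 CPM in M-carpel, below the M-stamen means of 615 and 187 CPM.

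Ribosomal protein genes had mostly small positive differences. Of 186 cytosolic ribosomal protein loci 170 had a positive log2 fold change, with a median of 0.49, against 0.02 over all loci. Only 8 were called higher (4.3%, against 9.95% of all loci) and 1 lower (0.538%, against 4.8%). They summed to 26179 to 27566 CPM in M-carpel and 18046 to 19808 CPM in m-carpel. In the stamens the median was -0.13. Ribosomal protein L39-1 (LITCHI016278) averaged 47.1 ± 3.26 CPM in M-carpel and 19.9 ± 4.06 CPM in m-carpel and L18-2 (LITCHI026471) 44.1 ± 2.5 CPM in M-carpel and 18.2 ± 2.14 CPM in m-carpel, while L44 (LITCHI026118) was the lower one with 24.5 ± 2.5 CPM in M-carpel and 86.7 ± 7.69 CPM in m-carpel. Histones, which package new DNA, had 6 of 37 loci higher (16.2%, against 9.95% of all loci) and 0 lower (median 0.48). Histone H1 (LITCHI006496) had 292, 297 and 276 CPM in M-carpel, against 135, 140.5 and 146 CPM in m-carpel. Genes of the cell cycle and replication counted 20 higher and 20 lower of 196 (10.2% each way, against 9.95% and 4.8% of all loci; median -0.04).

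Other transcription factor families had calls in both directions. Of 110 MYB loci 17 were higher (15.5%, against 9.95% of all loci) and 11 lower (10%, against 4.8%). Of 82 bHLH loci 13 were higher (15.9%) and 6 lower (7.32%), of 74 NAC loci 8 were higher (10.8%) and 1 lower (1.35%), and of 102 homeobox loci 10 were higher (9.8%) and 7 lower (6.86%). MYB61 (LITCHI002253), which acts on lignin and seed mucilage in Arabidopsis, averaged 6.52 ± 0.74 CPM in M-carpel and 31.1 ± 2.04 CPM in m-carpel and was lower at -2.25. MYB3 (LITCHI026844), a repressor of the phenylpropanoid pathway in Arabidopsis, averaged 51.1 ± 2.37 CPM in M-carpel and 14.5 ± 1.8 CPM in m-carpel and was higher at 1.82, and MYB308 (LITCHI023106), a repressor of the same pathway in Antirrhinum, was lower at -1.99. MYB77 (LITCHI011086) was higher at 1.99. The bHLH loci LITCHI005070 and LITCHI000277 stood at 2.19 and -1.74. The homeobox gene SBH1 (LITCHI029649), a KNOX factor of the type that keeps meristems undetermined, averaged 65.1 ± 4.24 CPM in M-carpel and 20.1 ± 1.3 CPM in m-carpel and was higher at 1.70. The homeodomain-leucine zipper gene ATHB-40 (LITCHI006678) had 47.4, 48 and 48.2 CPM in M-carpel, against 157, 156 and 155 CPM in m-carpel and was lower (log2 fold change -1.70 ± 0.14 (SE), adjusted p = 1.41e-08).

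Across all loci, the difference between M and m flowers depended on the organ at 4370 loci (17.7% of those tested), 2703 (11%) with a more positive difference in carpels and 1667 (6.76%) with a more negative one. In the stamens on their own, 3242 loci (13.1%) were called between M and m flowers, 1441 (5.84%) higher and 1801 (7.3%) lower. The carpel and stamen comparisons share no library. Leaving out each library in turn gave 3381 to 3653 called loci between M-carpel and m-carpel.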

How the data were processed

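Detached carpels and stamens were sequenced by the authors in 18 libraries, 3 for each of 6 organs, and organ and replicate of every library were read from its label, with 0 sample columns that matched no label. The deposited table holds whole-number read counts per annotation model, which the authors made without normalization, and all tests used these counts. The FPKM values in the same table, scaled by the authors to model length and mapped reads, were used only for levels compared between genes. HISAT2 2.0.4 and StringTie are named in the submitters' processing notes. The counting program, strand setting and genome build (not given in the sources used here) leave overlapping and antisense genes that cannot be told apart. Columns with the results of the authors' own DESeq2 tests between organs (an FDR and a log2 fold change) were not used.

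Models with the same identifier before .m were added up to a locus, because single models of a locus can take all reads in 1 library and none in another, which reduced 37401 models to 34024 loci. Low loci were removed with filterByExpr by organ, libraries were scaled by TMM, and edgeR 4.0.16 in R 4.3.3 was fitted to all 18 libraries in 1 model with the 6 organs. The quasi-likelihood test was applied to M-carpel minus m-carpel, to M-stamen minus m-stamen and to their difference (the interaction). Benjamini-Hochberg adjustment covered all 24666 loci tested, with calls at an FDR below 0.01 and a fold of at least 2. The F statistic and the log2 fold change gave the standard error. The labels do not say that the replicates came from separate trees, so p-values measure only the spread between these samples. The scripts were tested on simulated counts with known changes.

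Functions came from the Swiss-Prot description of the model with the most counts, or from NR where that was empty; 23439 loci had the first and 7491 only the second. The members and lists were chosen with earlier results of these data known. The named loci are the floral MADS-box genes of the paper, the 10 annotated loci that rose most and the 10 that fell most at a mean of at least 32 CPM over the 6 libraries, and up to 2 called members each way of every list at a mean of at least 10 CPM. The clock and chlorophyll lists and the roles within lists were chosen after their values were seen. So were the tapetum and pollen genes and the further enzymes of flavonoids, lignin and jasmonate. Oxygen-evolving enhancer protein 1, BEL1-like homeodomain protein 1, YABBY 1, APRR5, APRR1 and GIGANTEA were chosen in the same way. This also holds for LcMADS46, LcMADS47, LcMADS93, C13 and the second LAT52 and ABORTED MICROSPORES loci. Stamen-high loci were called higher in M-stamen and in m-stamen than in F-carpel with a log2 fold change of at least 5, and carpel-high loci higher in F-carpel than in both stamens with at least 3. The alternatives were DESeq2 1.42.0, its size factors, no filter, a mean of at least 5 CPM, the replicate number as a block, high-count loci left out, only the 6 libraries, 6% or 12% of M-stamen subtracted from M-carpel, models not summed, an FDR below 0.05, no minimum fold, each library left out, and, chosen after seeing the data, library totals without scaling factors.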

Additional observations from a re-analysis of the deposited data

Results flagged for a closer look

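The difference between M and m flowers in carpels differed from that in stamens at 4370 loci by the interaction test of edgeR's quasi-likelihood fit, and 108 of the named loci were among them. The values below are the log2 fold change of M over m in carpels minus that in stamens, so a positive value is a more positive difference in carpels. Among floral regulators it was 3.67 for LcPI, -4.45 for LcSTK, -1.84 for LcSHP, -1.22 for LcSEP3, -3.07 for LcSEP2 and -1.27 for LcAP3-2. LcSEP2 and LcAP3-2 were not called between the carpels. Outside the MADS family it was 3.52 for CRABS CLAW, 1.90 for YABBY 5, -1.48 for LEUNIG, -1.74 for the BELL1 homologue, -2.34 for SPL16 and -2.26 for TCP18.

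For pollen genes the difference came with lower levels in M-stamen than m-stamen. It was 2.71 for LAT52, 2.68 and 2.98 for the Ole e 6 loci LITCHI014844 and LITCHI026197, 2.07 for the extensin LITCHI001696 and 2.38 for pollen receptor-like kinase 1. In stamens alone their log2 fold changes were -1.34, -1.49, -1.07, -2.15 and -2.34. Of the lower calls of the stamen and pollen list, values were -5.26 for CYP703A2, -10.90 for ABORTED MICROSPORES and -14.26 for the ligase LITCHI004650. The values of ABORTED MICROSPORES and the ligase rest on groups at or near 0 counts and depend on the prior count of the fit.

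Photosynthesis and light genes differed more in carpels. The values were -3.20 for the Rubisco small subunit LITCHI008481, -4.15 for Rubisco activase, -4.18 for oxygen-evolving enhancer protein 1, -2.53 for photosystem I subunit N, -1.96 for ChlH LITCHI008874, -3.02 for glyceraldehyde-3-phosphate dehydrogenase and -3.01 for B-box protein 19. Carbonic anhydrase LITCHI018860 stood at 2.47. The clock genes LHY and LNK3 were at -2.81 and -1.98, both lower in M flowers in either organ.

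Flavonoid and lignin genes had positive values, 2.38 for chalcone synthase 2, 2.72 for flavonol synthase or flavanone 3-hydroxylase, 1.61 for dihydroflavonol 4-reductase, 1.85 for leucoanthocyanidin dioxygenase, 5.39 for leucoanthocyanidin reductase and 2.55 for anthocyanidin reductase. Laccase-7 was at 3.07, caffeoyl-CoA O-methyltransferase at 2.29 and CYP84A1 at 4.6. Wall and surface genes stood at 3.56 for Expansin-A4, 3.40 for endoglucanase 6, 3.09 for pectinesterase LITCHI012494, 5.44 for GDSL esterase LITCHI014353 and 3.44 for EARLI 1. Negative values were -4.94 for Expansin-like B1, -2.04 for cellulose synthase-like G3, -3.69 for pectinesterase inhibitor LITCHI022836 and -5.42 for the DIR1-type locus.

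Among hormone genes the values were 4.39 for NCED6, 4.61 for allene oxide synthase 3, 1.76 for oxophytodienoate reductase, 5.11 for GH3.1, 2.54 for the auxin carrier, 1.59 for RAP2-7, 1.84 for Snakin-1 and 3.85 for GAST1. They were -1.64 for the ABSCISIC ACID-INSENSITIVE 5 type, -1.06 for TIFY 6B, -1.74 for IAA26, -2.51 for auxin response factor 2B, -2.51 for the ACC oxidase, -2.97 for ethylene response factor 1B, -2.19 for Snakin-2, -1.33 for the gibberellin 2-beta-dioxygenase and -1.37 for cytokinin dehydrogenase 1. Sugar genes stood at 5.65 for NEC1, 4.76 for cell wall invertase and -1.61 for the SUC1-type transporter.

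The lectins Litchi_chinensis_newGene_2823 and LITCHI028104 were at -4.09 and -3.99, Litchi_chinensis_newGene_3821 at 4.90 and the agglutinin at 4.75. Defence and specialised metabolism genes stood at 1.74 for thaumatin-like protein 1, 2.01 for the defensin, -2.87 for WRKY30, -4.60 for WRKY21, -5.05 for DMR6-LIKE OXYGENASE 2, 4.32 for the berberine bridge type, 4.58 for beta-glucosidase 13, 3.92 for anthranilate N-methyltransferase, 2.47 for limonene synthase and 6.84 for terpene synthase 9. Transcription factors stood at -2.49 for MYB61, 1.45 for MYB77, -2.28 for MYB308, 1.63 and -4.97 for the bHLH loci LITCHI005070 and LITCHI000277, -2.49 for LITCHI021034, 1.19 for NAC transcription factor 25, 1.24 for SBH1 and -3.76 for ATHB-40.

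The remaining values were 1.26, 1.68 and -1.5 for the ribosomal proteins L39-1, L18-2 and L44, 4.20 and 1.27 for KIN-14I and KIN-13B, -1.37 for SMR6, 1.01 and -2.15 for the heat shock proteins LITCHI020669 and LITCHI018305, -3.72 and 2.50 for the cysteine proteases LITCHI029047 and LITCHI029054, and -4.02 and 3.27 for the aspartic proteinases LITCHI014226 and LITCHI018951. Transport and calcium genes stood at -1.15 for PIP1-2, 1.45 and 1.37 for potassium transporters 5 and 2, -1.73 for channel 2 and -1.47 for calmodulin-binding protein 60 A. No group was large enough for a search of single libraries that stand apart, since each has 3 libraries.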

How the results depend on the processing

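The 3638 calls, 2455 higher and 1183 lower, kept their excess of higher loci under DESeq2 (2794 and 1235), its size factors (2521 and 1119), library totals only (2689 and 1029), no filter (2427 and 1175), models not summed (2337 and 1124 of 27247), only the 6 libraries (2082 and 1165) and an FDR below 0.05 (2982 and 1432). With a mean of at least 5 CPM there were 1826 higher and 730 lower calls. With no minimum fold change there were 9119 calls, 4786 higher and 4333 lower, and 7756 interactions against 4370. Replicate numbers did not pair the samples (correlations of same-numbered deviations 0.00105, -0.00473 and -0.0057), and with the replicate number as a block 2365 higher and 1140 lower loci were called, 3485 of the calls shared. Leaving out each library in turn gave 3381 to 3653 calls, 2257 to 2566 higher, 1010 to 1187 lower, 4101 to 4353 interactions and 258 to 300 higher stamen-high loci.

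Subtracting M-stamen from M-carpel moved the balance of directions. With 6% subtracted 2027 loci were higher and 1507 lower, and with 12% 1803 and 2030, so that the excess turned; the m-carpel libraries were left as they were. Of the 288 higher stamen-high loci 45 and 32 were then called higher, and with only the 6 libraries 177. The pectin list went to 22 higher loci and the sugar list to 13 at 12%, and the ethylene list to 12 at 5 CPM. Among 139 named loci 8 changed direction. With 12% subtracted the log2 fold change was -1.46 for LcPI, -8.82 for Expansin-A4, -10.55 for carbonic anhydrase LITCHI018860, -9.94 for the Ole e 6 locus LITCHI026197, -9.24 for LITCHI029054, -12.19 for LAT52, -11.94 for LITCHI014844 and -11.18 for pollen receptor-like kinase 1. With 6% subtracted those reversed were at -10.56 (LITCHI018860), -9.95 (LITCHI026197), -9.25 (LITCHI029054), -12.20 (LAT52), -4.05 (LITCHI014844) and -2.88 (LITCHI016486). Values of about -9 or lower reflect M-carpel counts set to 0 by the subtraction. Calls were lost for 7 named loci under at least 1 alternative, among them ChlH LITCHI008866, whose FDR was 0.0291 with DESeq2, BEL1-like homeodomain protein 1 (-0.97 with 12% subtracted) and cytokinin dehydrogenase 1 LITCHI008772 (-1.01 with an FDR of 0.0123 without M-carpel replicate 2). At 6 loci, models of the same locus were called in opposite directions. Depth limits loci near the floor of 0.0957 to 0.117 CPM.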

Other observations

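Gene groups not described above gave further values. Of 75 heat shock loci 12 were higher (16%, against 9.95% of all loci) and 1 lower (1.33%, against 4.8%) in M-carpel than m-carpel (median 0.20). A heat stress transcription factor (LITCHI008825), a regulator of chaperone genes, had 66.8, 67.3 and 64.5 CPM in M-carpel, against 12.2, 12.8 and 14 CPM in m-carpel (log2 fold change 2.35 ± 0.21 (SE), adjusted p = 5.07e-08), with 1.3 CPM in F-carpel and 1.75 CPM in M-stamen. Heat shock protein 21 (LITCHI020669) was higher at 1.11, and the class I heat shock protein LITCHI018305 was the lower one at -1.22. Summed over the list, however, M-carpel held 4540 to 4781 CPM and m-carpel 5081 to 5459 CPM.

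Proteases and nucleases of cell death and senescence counted 10 higher and 6 lower of 120 (8.33% and 5%, near the 9.95% and 4.8% of all loci; median -0.11). A pair of loci described as senescence-specific cysteine proteases went in opposite directions. The locus LITCHI029047 had 21.6, 17.4 and 20.9 CPM in M-carpel, against 110.2, 118 and 114 CPM in m-carpel (log2 fold change -2.51 ± 0.18 (SE), adjusted p = 4.53e-09), with 0.0661 CPM in F-carpel, and LITCHI029054 had 21.6, 21 and 21.6 CPM in M-carpel, against 2.74, 2.09 and 3.01 CPM in m-carpel, with 425 CPM in M-stamen. Aspartic proteinase LITCHI014226 was lower at -2.11 and the nepenthesin-type proteinase LITCHI018951 higher at 2.94.

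Water and ion transport counted 11 higher and 8 lower of 85 (12.9% and 9.41%, against 9.95% and 4.8% of all loci; median 0.04). Aquaporin PIP1-2 (LITCHI022094), a water channel of the plasma membrane, had 415, 413 and 437 CPM in M-carpel, against 1191, 1204 and 1232 CPM in m-carpel (log2 fold change -1.52 ± 0.05 (SE), adjusted p = 7.09e-14). Potassium transporters differed by member, with log2 fold changes of 1.96 for transporter 5 (LITCHI021696), 1.70 for transporter 2 (LITCHI023004) and -1.44 for transporter 6 (LITCHI004982). Calcium signalling counted 11 higher and 9 lower of 175 (6.29% and 5.14%, against 9.95% and 4.8% of all loci; median -0.06). Cyclic nucleotide-gated channel 2 (LITCHI019429) averaged 262 ± 7.12 CPM in M-carpel and 699.7 ± 30.7 CPM in m-carpel and calmodulin-binding protein 60 A (LITCHI022313) averaged 77 ± 2.44 CPM in M-carpel and 278 ± 15.5 CPM in m-carpel, both lower at -1.42 and -1.85, while the channel LITCHI002490 was at 1.00, a call lost without M-carpel replicate 2 (0.98), m-carpel replicate 1 (0.97) or m-carpel replicate 2 (0.94).

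Single members of other families stood out too. The kinesins KIN-14I (LITCHI026506) and KIN-13B (LITCHI030629), motor proteins on microtubules, were higher at 2.89 and 1.69. The cyclin-dependent kinase inhibitor SMR6 (LITCHI020588) and kinase F-4 (LITCHI022709) were lower at -2.03 and -1.98. NAC transcription factor 25 (LITCHI029254) was higher at 1.36 and NAC83 (LITCHI020796) lower at -1.10; without M-carpel replicate 2 NAC83 stood at -0.98, below the fold limit. The bHLH factor LITCHI021034 was lower at -2.10 and the homeodomain-leucine zipper locus LITCHI020514 higher at 1.08. M-stamen held 129 CPM of LITCHI020514 and 228 CPM of NAC transcription factor 25, and with 12% of M-stamen subtracted their log2 fold changes were 0.04 (adjusted p = 0.848) and 0.62, neither a call. With 6% subtracted LITCHI020514 was at 0.71 and no call either. A tetraketide pyrone reductase (LITCHI002216), an enzyme of sporopollenin synthesis, had 2.41, 2.35 and 2.21 CPM in M-carpel, against 6.41, 6.39 and 5.59 CPM in m-carpel, a log2 fold change of -1.40 ± 0.19 (SE), while LITCHI004425 and LITCHI004433, of the same description, were higher at 1.33 and 1.39.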
